A study of Mus musculus with 4 samples.

Results

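The 32 genes described here serve protein folding in the endoplasmic reticulum (ER) and the unfolded protein response. They were taken by name: Ern1, Xbp1, Atf4, Ddit3 and Trib3 (stress sensors, transcription factors and their effectors), Hspa5, Dnajb9, Dnajb11, Dnajc3, Sdf2l1, Hyou1, Hsp90b1, Manf, Creld2 and Mzb1 (the chaperone BiP and its partners), Calr and Canx (lectin chaperones), P4hb, Pdia3, Pdia4, Pdia6 and Txndc5 (disulfide isomerases), Herpud1, Sel1l, Syvn1, Edem1, Derl1, Derl2 and Derl3 (ER-associated degradation), and Ssr1, Sec61b and Sec11c (translocation and signal cleavage). All 32 were among the 17813 genes of a single-cell RNA-seq table of 24802 cells from mouse liver tumour tissue. The series holds 2 samples labelled Miz1_delta_hep, described in the protocol as Miz1ΔHep mice, and 2 samples of Miz1F/F control mice, which carry the floxed allele without the deletion. Both groups were C57BL/6 mice of 5 months that had received the liver carcinogen diethylnitrosamine (25 mg/kg, intraperitoneal) at week 2 after birth and then the hepatotoxin carbon tetrachloride (0.5 ml/kg in corn oil) every week. The labels name neither the driver of the deletion nor whether animals were pooled.

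The cells carried 4 barcode suffixes, called barcode sets 1 to 4 below, and no source used here ties a suffix to a sample, so the genotypes were not compared. Sets 1 to 4 held 2574, 6224, 4825 and 11179 cells with a median of 2648, 906, 1037 and 1859 UMIs (unique molecular identifiers, each counted as 1 RNA molecule) per cell. There were 373 barcode sequences found in more than 1 set. Clusters of cells, made without the ER genes, were named from marker genes into 15 classes, of which 12 had at least 20 cells in every set. A level is a gene's share of a cell's UMIs scaled to 1000000 UMIs (CPM), averaged over the cells of a class within a set. Classes were compared within each set as log2((CPM + 10)/(CPM + 10)), and a gene was called higher or lower when it differed at least 2-fold in the same direction in every set. The sets are not known replicates of a condition, so no p-value is given, and each call is read against the percentage of all genes over 20 CPM that met the same rule. Sets 2 and 3 stood apart for several of the 32 genes, including Hspa5 and Hsp90b1, whose levels were higher there than in sets 1 and 4 in most classes; values are therefore given by set.

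Secreted and membrane proteins enter the ER through the Sec61 channel, lose their signal peptide, and fold with the help of BiP (Hspa5), lectin chaperones and disulfide isomerases. Chains that fail to fold are drawn back to the cytosol and degraded. When unfolded protein accumulates, the sensors IRE1 (encoded by Ern1), PERK and ATF6 act: IRE1 splices the Xbp1 mRNA so that an active transcription factor is made, PERK slows translation and favours translation of Atf4, and ATF6 is cut to release a factor that induces chaperones. Xbp1 is required for the secretory apparatus of antibody-secreting plasma cells, and hepatocytes are the main source of plasma proteins in the liver.

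Plasma cell-like cells gave the largest share of their UMIs to the 32 genes of the 15 classes. The summed share was 1.28, 2.30, 1.99 and 1.55% of UMIs in sets 1 to 4 in these 770 cells. Plasmacytoid dendritic cell-like cells followed with a median of 0.921% over the sets (lowest 0.691, highest 1.11). Kupffer cell-like cells, a macrophage of the liver sinusoids, had 0.746% (0.591 to 0.932) and basophil/mast cell-like cells 0.673% (0.515 to 0.782). The Krt8/Sox9 epithelial cluster had 0.614% (0.499 to 0.691) and hepatocyte-like cells 0.591% (0.451 to 0.673). B cell-like cells had 0.419% (0.312 to 0.513), and erythroid cell-like cells were lowest at 0.169% (0.0683 to 0.354). The ranges of the classes from Kupffer to hepatocyte-like cells overlapped, whereas the lowest plasma cell-like value lay above the highest value of every other class. The values of basophil/mast cell-like cells and of the Krt8/Sox9 cluster cover sets 2 to 4 only, so their place in the order is not settled. For example, monocyte/macrophage-like cells had 0.596% over 4 sets, but 0.804, 0.705 and 0.444% in sets 2 to 4.

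By the median over sets, 19 of the 32 genes had their highest level in plasma cell-like cells, against 1.36% of the 10031 genes over 20 CPM. In every set, 13 of the 32 were highest there, against 0.698% of genes: Xbp1, Dnajc3, Sdf2l1, Hsp90b1, Creld2, Mzb1, Pdia4, Txndc5, Sel1l, Edem1, Derl1, Derl3 and Sec11c. The other 13 genes led elsewhere. Canx, Pdia3 and Pdia6 had their highest median in Kupffer cell-like cells, and Canx was highest there in every set, as were 2.40% of genes. Ssr1 and Sec61b were highest in plasmacytoid dendritic cell-like cells, Ssr1 in every set (2.69% of genes). Trib3, P4hb and Derl2 led in hepatocyte-like cells, and Hspa5 and Dnajb9 in basophil/mast cell-like cells. Ddit3 led in neutrophil-like cells, where it was highest in every set (2.10% of genes). By the median, Ern1 led in NK cell/ILC1-like cells and Atf4 in the Krt8/Sox9 epithelial cluster. The medians of that cluster and of basophil/mast cell-like cells cover sets 2 to 4 only. In sets 2 and 3 Atf4 was higher in plasmacytoid dendritic cell-like cells, at 503 and 622 CPM, than in the Krt8/Sox9 cluster, at 351 and 358 CPM. None of the 32 is a marker by which the classes were named.

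**Figure D1:**
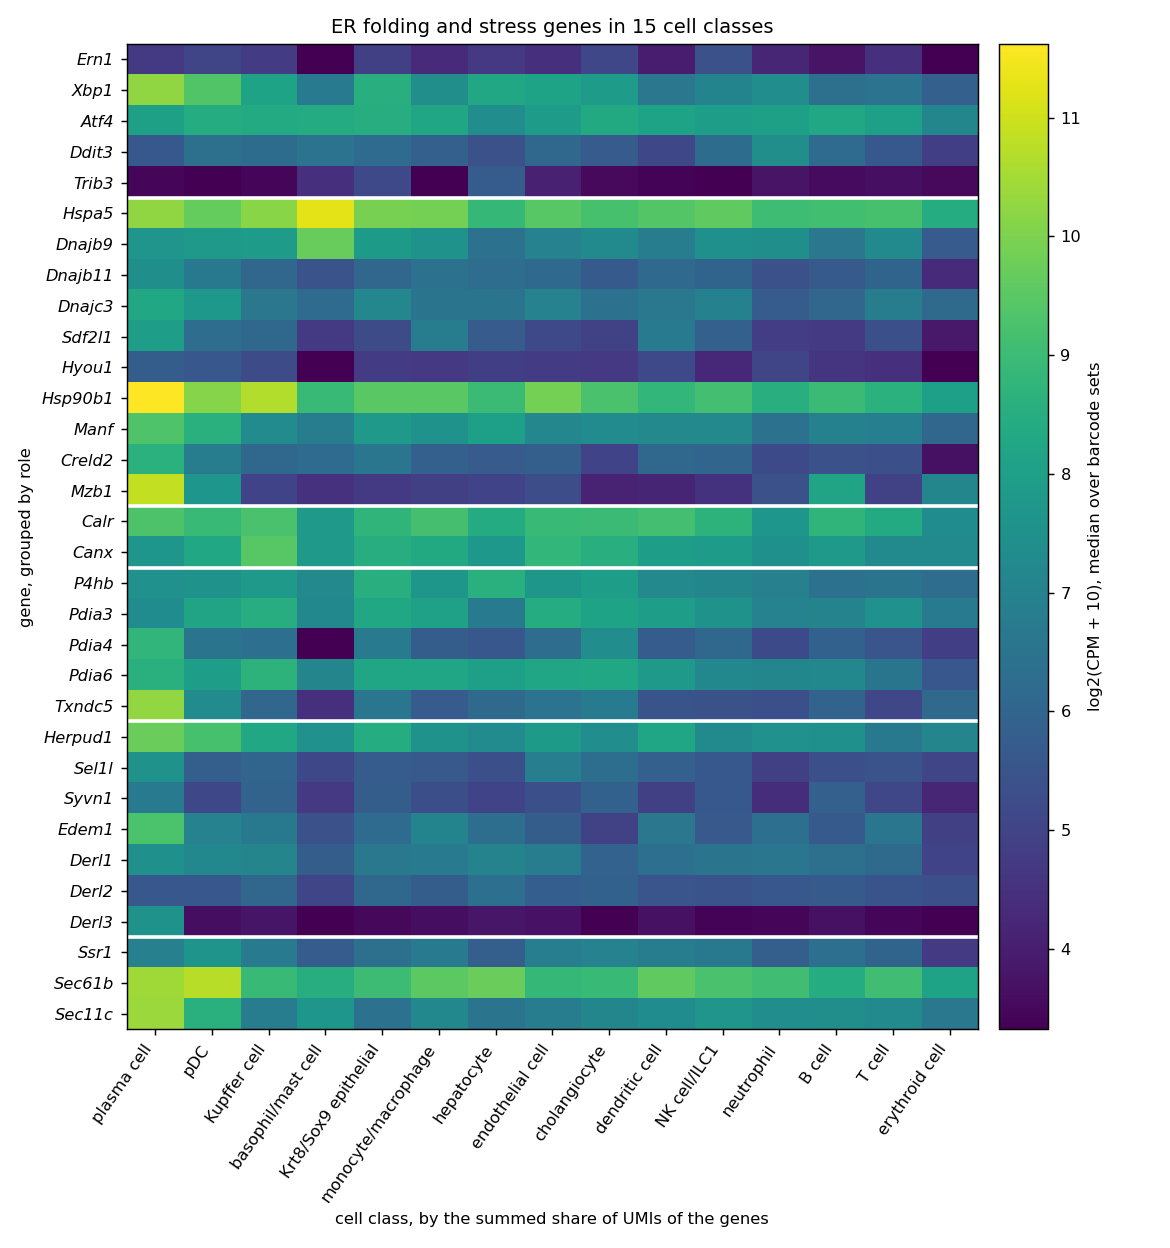
Levels of the 32 genes (rows, grouped by role with white lines between roles) in 15 cell classes (columns, ordered by the summed share of UMIs); colour is log2(CPM + 10) of the median over barcode sets, to be compared along a row. The plasma cell column is brightest for 19 rows, while Canx, Trib3, Dnajb9 and Ddit3 are brightest in other columns.

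Plasma cells differentiate from B cells, and the plasma cell-like and B cell-like classes were compared in all 4 sets. The B cell-like cells differed in cluster between sets. Sets 1 and 3 had most of theirs in 1 cluster (408 of 440 and 1122 of 1145 cells). Sets 2 and 4 each had most in another (1674 of 1902 and 3171 of 3262 cells). Of the 30 genes over 20 CPM (Ern1 and Trib3 were below), 15 were at least 2-fold higher in plasma cell-like cells in every set, against 2.84% of 3976 genes, and none was at least 2-fold lower, against 19.5% of genes. Without regard to size, 22 were higher in every set (9.78% of genes) and 2, Atf4 and Ddit3, were lower (65.8% of genes), a direction that turned with the scaling, as given below. The median log2 ratio of the 30 genes was 1.94 (1.20, 2.27, 2.03 and 1.84 in sets 1 to 4), beside -0.76 (-0.999 to -0.72) over all genes. As follows from the naming, 8 of 10 plasma cell markers were at least 2-fold higher in every set and 9 of 9 B cell markers at least 2-fold lower. All 4 erythroid markers over the filter were also higher in every set (median 1.47). So was the 1 marker over it of the T cell (1.59), NK cell/ILC1 (1.43) and cholangiocyte (1.54) lists. Those over it of the endothelial, Kupffer, dendritic and platelet lists were lower in every set. The part of other cells in the plasma cell result was not tested. Immunoglobulin RNA, including Jchain, took a median of 49.7% of UMIs in plasma cell-like cells (42.0 to 62.8) and 1.64% in B cell-like cells (1.36 to 2.26), which lowers the CPM of all other genes in plasma cell-like cells. With immunoglobulin and hepatocyte product UMIs left out of the totals, 24 of the 30 genes were called higher, against 8.17% of genes, and 0 called lower, against 5.09%.

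The response genes split. Xbp1 had 1187, 1448, 1202 and 1041 CPM in plasma cell-like cells of sets 1 to 4, against 46.6, 86.6, 93.8 and 59.3 CPM in B cell-like cells. The median log2 ratio was 3.92 (3.55 to 4.40). No Xbp1 value overlapped, though how many of all genes did not overlap was not counted. Atf4, the transcription factor of the PERK branch, had 132, 358, 335 and 166 CPM in plasma cell-like cells and 210, 392, 509 and 216 CPM in B cell-like cells, a log2 ratio of -0.47. That ratio became 0.38 relative to the median of all genes and 0.57 when immunoglobulin and hepatocyte product UMIs were left out of the totals. Ddit3, which encodes the stress-linked transcription factor CHOP, had 13.3, 63.6, 76.4 and 14.5 CPM in plasma cell-like cells and 35.4, 80.0, 89.9 and 47.9 CPM in B cell-like cells, a log2 ratio of -0.63 that became 0.23 and 0.20 under the same changes. Xbp1 stayed called under both, whereas Atf4 and Ddit3 were called under neither and no direction is given for them. These are total mRNA levels; the spliced form of Xbp1 was not measured.

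Among BiP and its partners the median log2 ratio was 2.35 and 6 of 10 genes were at least 2-fold higher in every set. Hsp90b1, which encodes the ER form of HSP90, had 1373, 5420, 4705 and 1572 CPM in plasma cell-like cells, against 237, 862, 729 and 252 CPM in B cell-like cells. Both classes were higher in sets 2 and 3, and the log2 ratio hardly moved between sets, at 2.62 (2.48 to 2.67). Hspa5 behaved otherwise: it had 247, 2058, 1769 and 646 CPM in plasma cell-like cells and 265, 726, 846 and 350 CPM in B cell-like cells. Its log2 ratio was -0.10 in set 1 and 0.87 to 1.49 in the other sets, so the BiP gene itself was not called. Mzb1, a chaperone-associated protein of the B lineage, had 2047, 1627, 1506 and 2407 CPM against 459, 141, 185 and 375 CPM in B cell-like cells (log2 ratio 2.80). Sdf2l1 (3.42), Creld2 (3.33), Manf (2.43) and the co-chaperone gene Dnajc3 (2.28) were also called, whereas Dnajb9 (0.83), Dnajb11 (1.88) and Hyou1 (1.07) were not.

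Txndc5, a disulfide isomerase gene, had the largest ratio of the 32. It had 1434, 1122, 1214 and 1235 CPM in plasma cell-like cells and 51.3, 52.0, 65.6 and 52.7 CPM in B cell-like cells, a log2 ratio of 4.25 (4.02 to 4.56). The levels within plasma cell-like cells differed little between sets. For cells with at least 1000 UMIs, the share expected to hold a Txndc5 UMI after thinning to 1000 UMIs was computed. Its median over sets was 67.9% in plasma cell-like, 5.00% in B cell-like and 2.48% in T cell-like cells. Over all cells of these classes, without thinning, the shares were 92.1, 5.97 and 4.39%. The thinning kept 712 of 770 plasma cell-like, 3728 of 6749 B cell-like and 1428 of 2432 T cell-like cells. Before the thinning, plasma cell-like cells had a median of 21300, 4424, 4824 and 11170 UMIs in sets 1 to 4. B cell-like cells had 2196, 570, 549 and 1488 UMIs, and T cell-like cells 3270, 811, 857 and 2449 UMIs. Pdia4 was the other called isomerase (log2 ratio 2.75), with 429 CPM in plasma cell-like cells and 50.3 CPM in B cell-like cells by the median. P4hb (0.94), Pdia3 (0.27) and Pdia6 (1.41) were not called. Canx, which holds glycoproteins during folding, had 40.5, 324, 270 and 119 CPM in plasma cell-like cells against 82.3, 328, 307 and 108 CPM in B cell-like cells (log2 ratio -0.10, in both directions over sets), and its soluble relative Calr had a ratio of 0.69.

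Of the 7 degradation genes, Herpud1, Sel1l, Edem1 and Derl3 were called. Derl3, a derlin of the retrotranslocation machinery, had 161, 190, 202 and 156 CPM in plasma cell-like cells, against 0.327, 3.01, 5.89 and 3.04 CPM in B cell-like cells (log2 ratio 3.84). In hepatocyte-like cells, the next class by median, it had 2.08, 2.13, 43.1 and 5.91 CPM; the class held 17 Derl3 UMIs in all, beside 982 in plasma cell-like cells. The relatives of Derl3 differed from it, with Derl1 at 136, 179, 161 and 181 CPM against 53.2, 96.4, 70.6 and 75.3 CPM in B cell-like cells (log2 ratio 1.13) and Derl2 at a ratio of 0.0041. Edem1, a mannosidase-like protein that marks glycoproteins for degradation, had 604 CPM against 41.1 CPM by the median (log2 ratio 3.59), and the membrane adaptor gene Sel1l had a ratio of 2.19. Of the translocation genes, Sec11c (signal peptidase, 3.04) and Sec61b (channel subunit, 1.99) were called, and Ssr1 (0.50) was not.

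**Figure D2:**
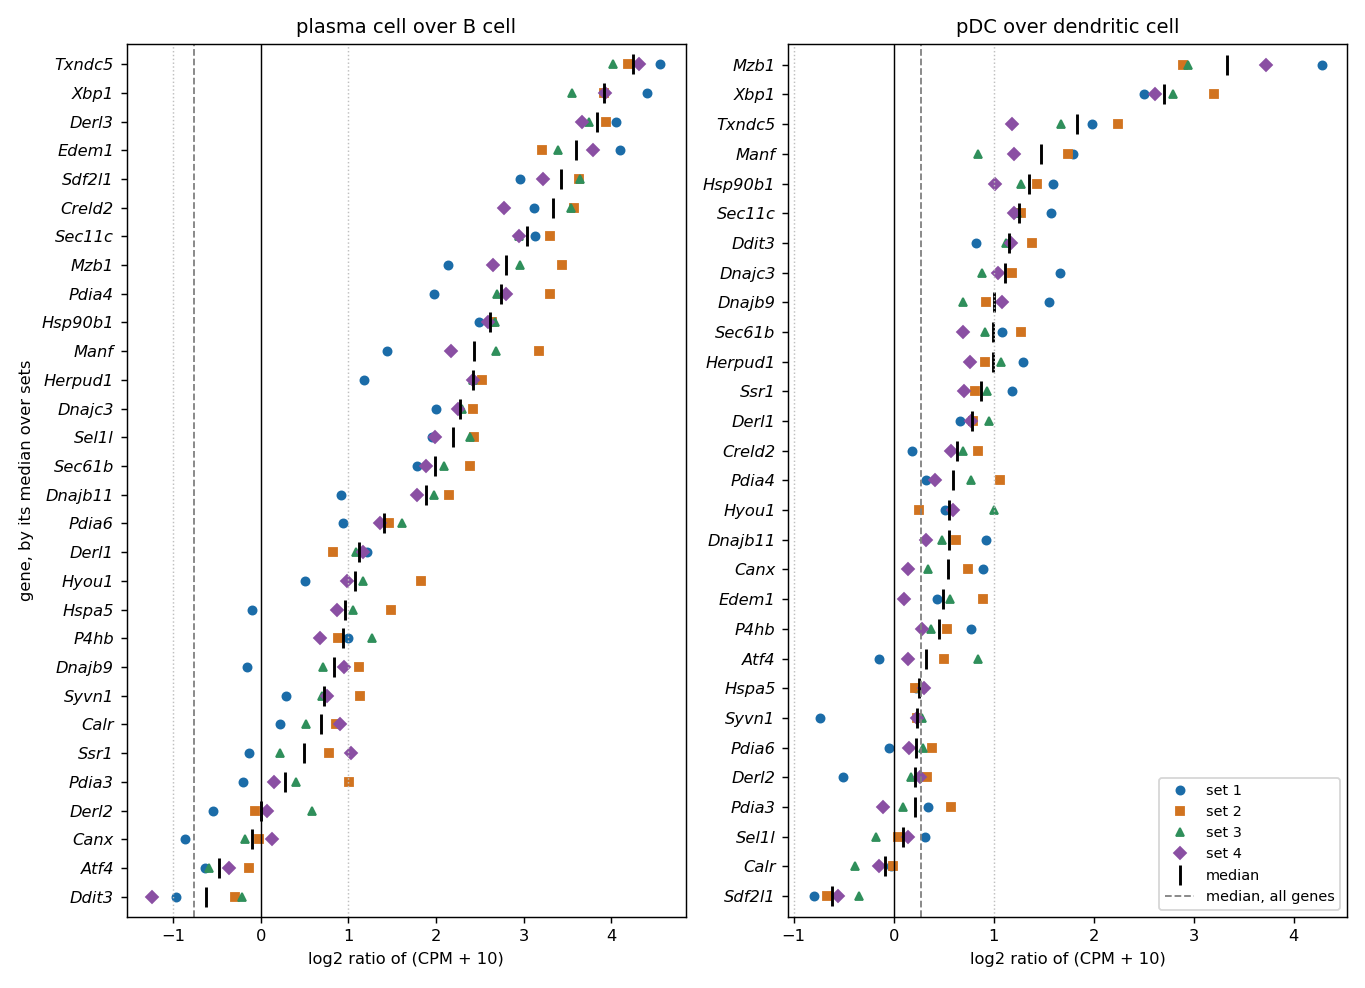
Log2 ratio of (CPM + 10) for the members over the filter on low values, in plasma cell-like over B cell-like cells (left) and plasmacytoid dendritic cell-like (pDC) over dendritic cell-like cells (right). Coloured symbols are barcode sets, black bars the median over sets, the dashed line the median of all genes and dotted lines a 2-fold difference; in the left panel Txndc5, Xbp1 and Derl3 lie near 4 in every set, and Hspa5 and Dnajb9 fall below 0 in set 1.

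Other ER genes, from lists that hold none of the 32, were counted in the same comparison, in which 9.78% of all genes were higher and 65.8% lower in every set. Of 29 further translocon, signal peptidase and glycosylation genes over the filter, 22 were higher in every set and 3 lower, with a median log2 ratio of 1.15; Ssr4, a subunit of the signal sequence receptor, had 1266 CPM in plasma cell-like cells against 141 CPM in B cell-like cells (3.27). Of 16 further folding and oxidation genes, 12 were higher and 2 lower (median 1.32), among them the prolyl isomerase genes Fkbp2 (2.90) and Ppib (1.52). Of 13 further degradation genes, 10 were higher and 2 lower (median 0.83), and Selenok had a ratio of 1.03. Of 21 ER to Golgi transport genes, 14 were higher and none lower (median 0.64), with the cargo receptor gene Tmed2 at 0.62. PERK-ATF4 targets were mixed, with 4 of 9 higher and 2 lower (median 0.44). Of 10 further sensors and regulators, 2 were higher and 7 lower, and their median of -0.55 lay above the -0.76 of all genes. Of 7 cytosolic heat shock genes none was higher and 5 were lower, and their median of -0.96 lay below it; the counts of lower genes in these last lists are close to the share of all genes.

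The promoter windows show what several of the 32 genes share in sequence. The ER stress response element (ERSE), which ATF6 binds together with NF-Y, reads CCAAT, any 9 bases and CCACG. It was searched on both strands in the 250 bases before each RefSeq start of a gene (GRCm38.p6). A window was available for 27 of the 32 genes; Hyou1, Manf, Mzb1, Derl1 and Sec11c had no entry. An exact match occurred in 9 of 27 (33.3%), against 0.130% of 27025 genes. Sites are shown so that the element can be compared between genes called above (Hsp90b1, Dnajc3, Creld2 and Derl3) and genes that were not (Hspa5, Calr, Canx and Pdia6); each is given 5′ to 3′ on the strand of the gene with 5 flanking bases and the fixed motif letters in capitals, and a match on the opposite strand reads CGTGG first.
Hspa5, chr2:34772020-34772048 (+): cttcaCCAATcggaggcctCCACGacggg
Dnajc3, chr14:118937822-118937850 (+): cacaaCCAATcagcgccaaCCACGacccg
Creld2, chr15:88819515-88819543 (+): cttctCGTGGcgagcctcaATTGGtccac
Calr, chr8:84847070-84847098 (-): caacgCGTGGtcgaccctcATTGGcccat
Canx, chr11:50325795-50325823 (-): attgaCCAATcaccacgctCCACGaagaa
Pdia6, chr12:17266486-17266514 (+): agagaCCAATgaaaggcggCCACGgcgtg
Derl3, chr10:75893237-75893265 (+): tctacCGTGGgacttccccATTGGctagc
Hsp90b1 held 2 matches, on opposite strands, in the window chr10:86705445-86705694 (-), printed whole for their spacing.
Hsp90b1: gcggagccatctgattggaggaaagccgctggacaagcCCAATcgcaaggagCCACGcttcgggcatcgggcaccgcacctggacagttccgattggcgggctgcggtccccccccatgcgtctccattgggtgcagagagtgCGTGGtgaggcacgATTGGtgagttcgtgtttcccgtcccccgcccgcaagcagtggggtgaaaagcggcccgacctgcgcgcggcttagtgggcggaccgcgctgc

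The ninth gene with a match was Syvn1. Herpud1 held the related element ERSE-II (ATTGG, any 1 base and CCACG, both strands, in 0.0370% of genes). Txndc5 held the element UPRE (TGACGTGG, both strands, in 0.603% of genes). The UPRE lay before a RefSeq start inside the gene, which spans chr13:38500079-38528824 (-) in GENCODE vM21. The motif CARE (TGATG, any 1 base and AA, both strands) occurred in 2 of 27 genes (7.41%), Txndc5 and Herpud1, against 3.91% of genes. The ERSE-II and UPRE sites are shown with 5 flanking bases and the fixed letters in capitals.
Herpud1, chr8:94386372-94386392 (+): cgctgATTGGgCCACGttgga
Txndc5, chr13:38528040-38528057 (-): gccgcTGACGTGGcgcta
The 9 genes with an ERSE match had plasma cell-like over B cell-like log2 ratios between -0.10 (Canx) and 3.84 (Derl3), with a median of 1.41, and 4 of them were called. The 16 genes over the filter with a window and no ERSE match ran between -0.63 and 4.25 with a median of 1.94, and 8 were called. The ratios of the members with and without an exact ERSE overlapped. The members with the 2 largest ratios, Txndc5 and Xbp1, had none. The group without a match included Herpud1 with ERSE-II and Txndc5 with UPRE, and members with no window were in neither group. The part of these elements in the ratios was not tested.

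Plasmacytoid dendritic cells secrete type I interferon and have a plasma cell-like ER, and they were set against the other dendritic cell-like cells. Of 29 genes over the filter, 5 were at least 2-fold higher in the plasmacytoid class in every set, against 7.26% of 5056 genes, and none was at least 2-fold lower, against 4.73%. In any size, 21 were higher in every set, against 42.5% of genes, and 2, Calr and Sdf2l1, were lower, against 17.0%. The median log2 ratio of the 29 was 0.77 (0.57 to 0.81) beside 0.28 over all genes. Among the markers, 10 of 10 of the plasmacytoid list were at least 2-fold higher in every set, and 7 of the 10 dendritic cell markers over the filter were at least 2-fold lower. Of the 10 listed T cell markers only 3 passed the filter, and these 3 were at least 2-fold higher in every set (median 3.35). Of the 7 listed erythroid markers 4 passed it, and these were higher in every set (median 1.10). The part of other cells in the result was not tested. Mzb1 had 240, 111, 150 and 256 CPM in plasmacytoid dendritic cell-like cells against 2.84, 6.26, 10.8 and 10.2 CPM in dendritic cell-like cells (log2 ratio 3.33). Xbp1 had 494, 957, 793 and 492 CPM against 78.9, 95.1, 106 and 72.3 CPM (2.70). Neither gene overlapped between the classes, and how many of all genes did not overlap was not counted.

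Txndc5 (log2 ratio 1.83), Hsp90b1 (1.35) and Sec11c (1.25) were the other called genes. Relative to the all-gene median these 3 were no longer called, while Mzb1 (3.09) and Xbp1 (2.46) were. Sdf2l1, the partner of the BiP co-chaperone Dnajb11, ran the other way, with 100, 29.8, 43.4 and 91.5 CPM in plasmacytoid dendritic cell-like cells against 182, 53.2, 57.8 and 140 CPM in dendritic cell-like cells (-0.62). Hspa5 differed little between the classes, at 427, 1068, 1183 and 513 CPM against 363, 918, 972 and 413 CPM (0.25). Of 28 further translocon genes, 23 were higher in every set and none lower (median 0.77), beside 42.5% and 17.0% of all genes, with Serp1, a ribosome-associated membrane protein gene, at 1235 CPM against 353 CPM (1.90). Of 8 PERK-ATF4 targets 4 were higher, close to the share of all genes, and 4 lower, against 17.0% of genes. By the 2-fold rule 0 were called higher (7.26% of genes) and 3 lower (4.73%), Atf3 (-1.66) and Ppp1r15a (-1.84) among them. The part of cell dissociation in the levels of these 2 genes was not tested.

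The remaining leading classes concern single genes. Dnajb9, an Hspa5 co-chaperone gene, had 873, 795 and 820 CPM in basophil/mast cell-like cells of sets 2 to 4, against a median of 231 CPM in Kupffer cell-like cells, the next class. Hspa5 had 2475, 3634 and 875 CPM in the same cells, against 2058, 1769 and 646 CPM in plasma cell-like cells of those sets. The class is small, with 139 cells and 116 Dnajb9 UMIs, and had under 20 cells in set 1. Over the 15 class medians, Dnajb9 was the gene among the 32 whose levels followed Hspa5 most closely (Pearson r 0.92). Creld2 (0.64), Atf4 (0.64) and Hsp90b1 (0.51) came next. Basophil/mast cell-like cells were highest for both Dnajb9 and Hspa5, and r without this small class was not computed. The classes share libraries and depth, and r is a description.

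Ddit3 had 124, 264, 157 and 170 CPM in neutrophil-like cells, above every other class in each set. The level lay in the neutrophil-like cluster led by G0s2 and Gm5483, with 147, 311, 262 and 181 CPM. The cluster led by Ngp and Camp, genes of granules made in immature neutrophils, had 20.5, 72.7, 32.3 and 52.9 CPM. Elane, Mpo and Prtn3 were also among the leading genes of its 221 cells. A finer clustering gave a neutrophil cluster of 104 cells led by Ngp and Camp and an unnamed cluster of 168 cells led by Elane and Mpo. The clusters differed in depth, with a median of 945 UMIs in the G0s2 cluster and 4866 in the Ngp cluster. Calr ran the other way, with 112, 162, 202 and 148 CPM in the G0s2 cluster and 324, 509, 319 and 320 CPM in the Ngp cluster. Canx had 369, 867, 931 and 527 CPM in Kupffer cell-like cells, against 193, 555, 570 and 317 CPM in endothelial cell-like cells, which were next. Within the Kupffer cell-like class the cluster led by Fcna and Hmox1 had more Hspa5, at 831, 1832 and 669 CPM in sets 1, 2 and 4, than the cluster led by C1qb and Folr2, at 145, 706 and 343 CPM; their median depths were 1642 and 883 UMIs, and the part of depth was not tested.

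**Figure D3:**
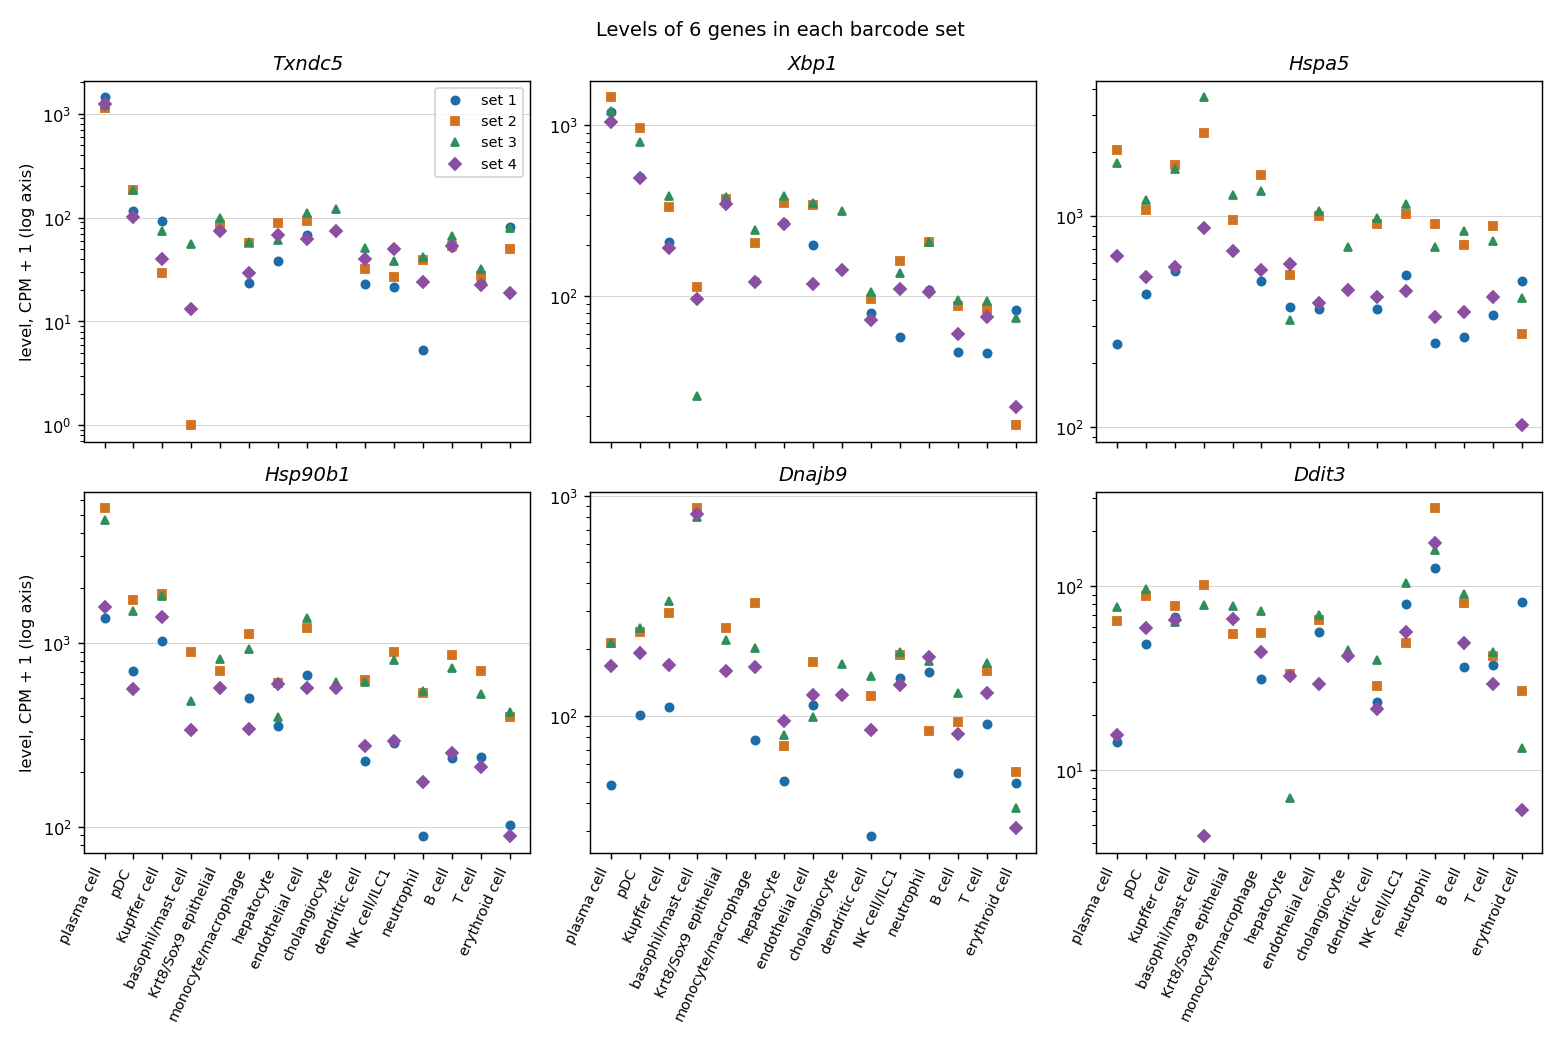
Levels of 6 genes (CPM + 1, log axis) in 15 cell classes, 1 symbol per barcode set. Txndc5 and Xbp1 are near 1000 in plasma cells in all 4 sets; Hspa5 and Hsp90b1 are higher in sets 2 and 3 than in sets 1 and 4 in most classes but not in hepatocytes; Dnajb9 leads in basophil/mast cells and Ddit3 in neutrophils.

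Tumour-bearing liver held a cluster of 801 epithelial cells with Krt8 and Sox9, a progenitor and duct transcription factor, and it was compared with hepatocyte-like cells in sets 2 to 4 (set 1 had 19 cells of the cluster). Its Sox9 level was 458 CPM by the median, and the biliary keratin gene Krt19 was near 0 at 1.70 CPM. Of the 28 genes over the filter, none was at least 2-fold higher in the cluster in every set, against 7.90% of 5265 genes, and none at least 2-fold lower, against 4.29%. In any size, 10 were higher in every set (43.5% of genes) and 2, Derl1 and Sec61b, were lower (18.5%). The median log2 ratio of the 28 was 0.23 (-0.06 to 0.94) beside 0.35 (0.20 to 0.50) over all genes. Atf4 had 351, 358 and 259 CPM in the cluster against 183, 201 and 126 CPM in hepatocyte-like cells, a log2 ratio of 0.91 (0.80 to 0.98). Dnajb9 had 248, 221 and 159 CPM against 71.6, 80.4 and 93.2 CPM (1.35), Hspa5 had 953, 1248 and 683 CPM against 525, 321 and 593 CPM (0.85), and Ddit3 had 54.3, 77.1 and 65.3 CPM against 32.4, 6.06 and 31.6 CPM (0.86). Sec61b had 501, 537 and 402 CPM against 795, 1225 and 880 CPM (-1.11).

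Genes downstream of PERK and Atf4 were counted beside the 32 genes. Of 12 such targets over the filter, 6 were higher in the Krt8/Sox9 cluster in every set and 3 lower (median 0.83), near the 43.5% and 18.5% of all genes. By the 2-fold rule 5 of the 12 were called higher (7.90% of genes) and 2 lower (4.29%). Atf3 had 1352 CPM against 80.0 CPM in hepatocyte-like cells by the median (log2 ratio 4.01), Ppp1r15a, which restores translation after PERK, had 283 CPM against 50.5 CPM (2.26), Cebpb had a ratio of 1.33 and Slc3a2 one of 0.98. All 8 cytosolic heat shock genes were higher in every set, with a median of 1.39, and Hsp90aa1 had a ratio of 1.79. The part of cell dissociation in the levels of Atf3 and the heat shock genes was not tested.

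The result against hepatocyte-like cells depended on which hepatocytes were taken. The hepatocyte-like class was made of a cluster of 627 cells led by Alb and Serpina3k and a cluster of 526 cells led by Fabp1 and Gstm3, and these were set against each other after their values had been seen, in the 3 sets with at least 20 cells of both (1, 2 and 4). Of 30 genes over the filter, 12 were at least 2-fold higher in the Alb/Serpina3k cluster in every set, against 8.42% of 4252 genes, and none at least 2-fold lower, against 3.97%. In any size, 21 were higher (24.2% of genes) and 2, Sec61b and Sec11c (-0.16, near the median of all genes), were lower (35.0%). The median log2 ratio of the 30 was 1.46 (1.17 to 1.84), beside -0.13 (-0.26 to -0.12) over all genes.

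Hspa5 had 615, 733 and 1078 CPM in the Alb/Serpina3k cluster of sets 1, 2 and 4, against 54.2, 161 and 111 CPM in the Fabp1/Gstm3 cluster (log2 ratio 3.17). P4hb, which forms disulfide bonds and is a subunit of collagen prolyl hydroxylase, had 310, 741 and 940 CPM against 33.2, 175 and 135 CPM (2.72). Calr had 677, 375 and 672 CPM against 164, 44.1 and 147 CPM (2.12), and Hsp90b1 had 567, 774 and 1031 CPM against 77.7, 308 and 175 CPM (2.49). The clusters did not overlap for any of these 4 genes, which were chosen after their values were seen. The share of all genes without overlap was not counted. Pdia6 (3.10), Pdia3 (2.07), Pdia4 (1.91), Canx (1.85), Herpud1 (1.85), Sel1l (2.38) and Derl1 (1.33) were also called. Hyou1 met the rule too, with 80 UMIs in the Alb/Serpina3k cluster and 1 UMI in the Fabp1/Gstm3 cluster, but was not called without set 1, where it fell below the filter.

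Not every gene followed. Xbp1 had 272, 346 and 318 CPM in the Alb/Serpina3k cluster and 259, 351 and 210 CPM in the Fabp1/Gstm3 cluster (log2 ratio 0.07), Atf4 had a ratio of -0.14, and Trib3, a pseudokinase induced by Atf4, a ratio of 0.12; all 3 were in both directions over sets. Sec61b was lower, at 495, 556 and 527 CPM against 975, 1214 and 1230 CPM (-1.11). The clusters differed in other ways. The Alb/Serpina3k cluster had a median of 961, 6152 and 2726 UMIs per cell in sets 1, 2 and 4, against 1152, 905 and 1267 UMIs in the Fabp1/Gstm3 cluster. Listed hepatocyte products took 28.7, 28.0 and 31.3% of UMIs in the Alb/Serpina3k cluster, against 13.01, 11.8 and 11.4% in the Fabp1/Gstm3 cluster, and ribosomal protein genes took 14.4, 12.3 and 10.4% against 21.6, 22.9 and 17.1%. In set 1 the Alb/Serpina3k cluster also held RNA of Mpo, Elane and Prtn3, genes of neutrophil precursor granules, at 266, 301 and 345 CPM, against 6.50, 8.81 and 101 CPM in the Fabp1/Gstm3 cluster, and a finer clustering put 87 of its 133 cells in a cluster of their own led by Hpx and Serpina3k. Without the cells of that finer cluster, 11 members were called higher (8.79% of genes) and 1, Sec61b, lower (3.95%), with a median of 1.18. Without set 1, 13 were called higher (10.7%) and 1, Sec61b, lower (4.97%), with a median of 1.27. The part of depth and RNA quality in the difference was not tested.

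Against the Alb/Serpina3k cells alone, in sets 2 and 4, the median log2 ratio of the Krt8/Sox9 cluster was -0.33 over 31 genes. None was called higher (8.75% of all genes) or lower (4.83%). Atf4 was at 1.08, Hspa5 at -0.14 and P4hb at -1.38. Against the Fabp1/Gstm3 cells alone, in sets 2 to 4, it was 1.31 over 28 genes, with 9 at least 2-fold higher (14.3% of genes) and 1, Sec61b, lower (5.43%). Set 3 held 15 Alb/Serpina3k cells and 36 Fabp1/Gstm3 cells. It was also the set in which the ratio of the Krt8/Sox9 cluster to all hepatocyte-like cells was highest, at 0.94.

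**Figure D4:**
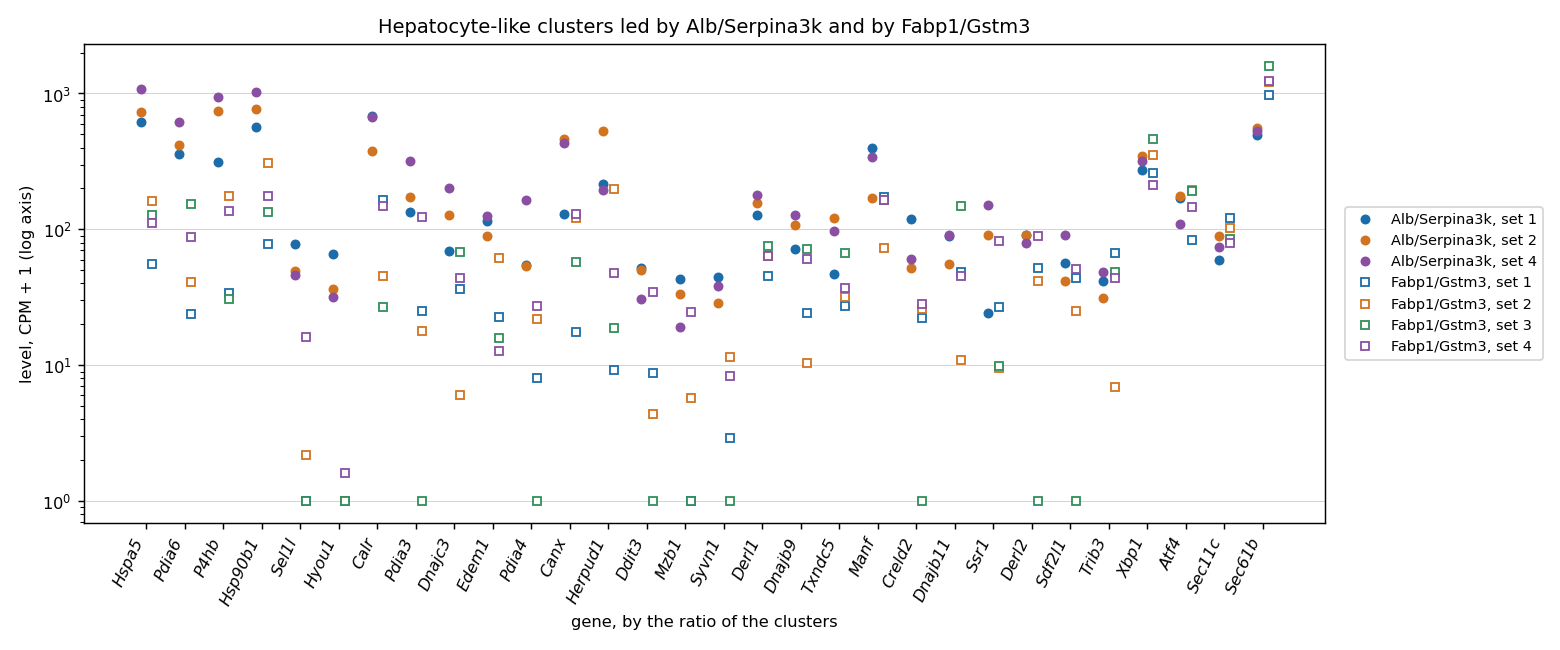
Levels (CPM + 1, log axis; a level of 0 is drawn at 1) of the members in the hepatocyte-like cluster led by Alb and Serpina3k (filled circles) and the cluster led by Fabp1 and Gstm3 (open squares), coloured by barcode set and ordered by the ratio of the clusters; set 3 is drawn for the Fabp1/Gstm3 cluster, as the other had under 20 cells there. Hspa5, Pdia6, P4hb and Hsp90b1 at the left, the genes with the largest ratios, do not overlap between clusters. The share of all genes without overlap was not counted. Xbp1 and Atf4 overlap, and Sec61b at the right is lower in the Alb/Serpina3k cluster.

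The secretory classes of the tissue were compared directly. Of 31 genes over the filter, 12 were at least 2-fold higher in plasma cell-like than in hepatocyte-like cells in all 4 sets, against 4.17% of 3910 genes, and 1, Trib3, was at least 2-fold lower, against 25.3%. In any size, 20 were higher (13.3% of genes) and 1 lower (49.5%). The median log2 ratio was 1.36 (0.58 to 2.00) beside -0.69 over all genes. Mzb1 (6.12), Txndc5 (4.08), Sec11c (3.92), Derl3 (3.60) and Edem1 (3.003) had the largest ratios. Trib3 had 0, 1.595, 1.26 and 0.521 CPM in plasma cell-like cells, against 52.0, 21.4, 42.3 and 45.3 CPM in hepatocyte-like cells (log2 ratio -2.30). P4hb had 63.4, 275, 235 and 109 CPM in plasma cell-like cells against 188, 535, 216 and 536 CPM in hepatocyte-like cells, a ratio of -1.18 that was not in the same direction in every set. Against the Alb/Serpina3k cells alone the median ratio was 0.48 in sets 1, 2 and 4. There 10 genes were called higher (4.05% of all genes) and 2, Trib3 and P4hb, lower (24%).

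**Figure D5:**
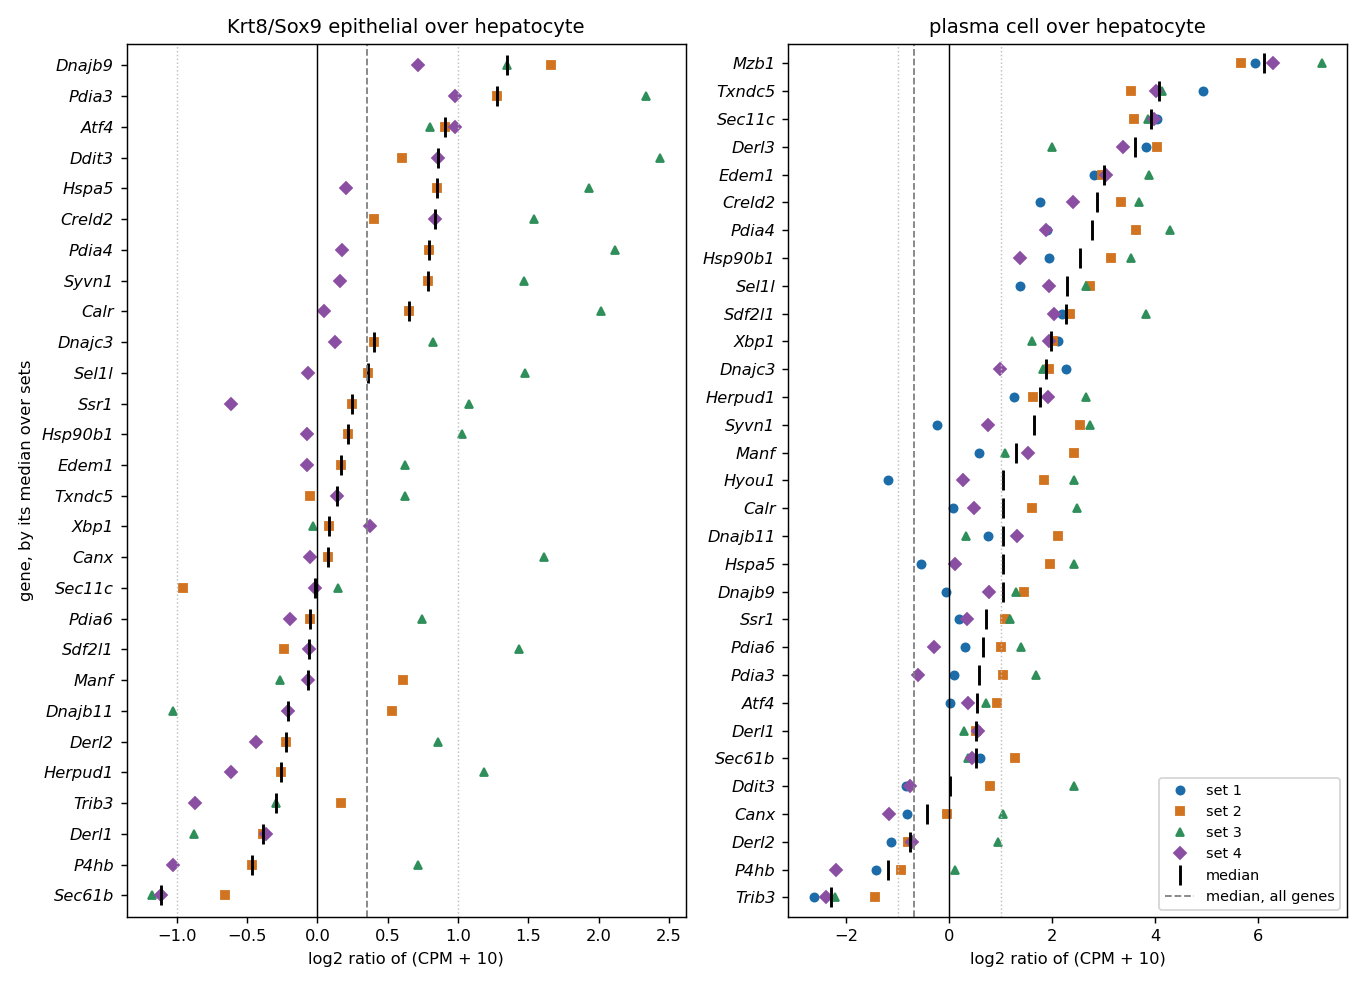
Log2 ratio of (CPM + 10) for the members over the filter in the Krt8/Sox9 epithelial cluster over hepatocyte-like cells (left) and plasma cell-like over hepatocyte-like cells (right); symbols, bars and lines as in the plot of plasma cell and pDC ratios. On the left most bars lie between the dotted 2-fold lines, and on the right Mzb1 lies near 6 and Trib3 below -2.

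Ern1 and Hyou1 were at low levels throughout. The highest class median of Ern1 was 31.7 CPM in NK cell/ILC1-like cells (14.5 to 88.1), from 64 UMIs, and that of Hyou1 44.7 CPM in plasma cell-like cells (10.45 to 107). The range of each overlapped that of the next class, so that the leading classes given above for Ern1 and Hyou1 hold for the median only. Free RNA in the droplets was read from Jchain and Alb. Jchain, an immunoglobulin chain gene, had a median of 49450 CPM in plasma cell-like cells, and its medians in the other classes ran between 157 CPM in dendritic cell-like cells and 924 CPM in basophil/mast cell-like cells. Alb had 44110 CPM in hepatocyte-like cells and 7989 CPM in the Krt8/Sox9 epithelial cluster, and its medians in the other classes ran between 633 CPM in plasma cell-like cells and 2707 CPM in basophil/mast cell-like cells.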

How the data were processed

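Single-cell libraries of mouse liver tumour tissue were made with 10x 3′ version 2 chemistry, per the labels' protocols. CASAVA 1.8, Cell Ranger, Seurat and the build mm10 are named in the submitters' processing notes; no filter on cells is stated. The table deposited by the authors holds natural log values, ln(1 + UMIs per 10000 UMIs of the cell); 100% of the values came out as whole UMIs (relative tolerance 0.001) and these were recovered, 65920312 in all, with at least 201 genes per cell. The intervals of such counts would cover counting error only. Because no source ties a barcode suffix to a sample, the planned genotype test was not run and sets of barcodes are described one by one.

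Cells were clustered with scanpy 1.11.5 (2000 variable genes without 156 listed ER genes, the 32 genes among them, 30 principal components, 15 neighbours, Leiden resolution 1.0, seed 1), which gave 26 clusters. They were named from 18 marker lists; 449 cells of 2 clusters stayed unnamed. No doublet caller was run. Levels, ratios, calls and lists are as defined above, with a pseudocount of 10 CPM and a filter of 20 CPM. The step was run on simulated data, with ratios centred on the all-gene median and no difference between sets. The calls on ratios without centring were not tested in that way. Values by set are given, in each pair, for up to 6 called members a direction and the member of each role with the highest mean level, and of the other lists up to 4 genes of the highest mean level may be named; any further member given by set, the genes within hepatocyte, neutrophil and Kupffer clusters and the lead genes of clusters, and Hsp90aa1, were chosen after their values were seen. The members and lists were chosen with earlier results of these data known. Alternatives were another pseudocount and filter, UMI weighting, other totals and centring, other clusterings, a gene minimum of 500 per cell and each barcode set left out. The cells of shared barcode sequences and each hepatocyte-like cluster alone, and the comparison of these clusters with its alternatives, were added after the data had been seen.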

Additional observations from a re-analysis of the deposited data

How the results depend on the processing

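No paired analysis was possible because no barcode set is tied to a sample, so the planned test of genotype was not run and replicate numbers could not enter it; classes were compared within barcode sets throughout. In plasma cell-like over B cell-like cells, leaving immunoglobulin and hepatocyte product UMIs out of the totals gave a median log2 ratio of 2.81. It gave 24 members at least 2-fold higher (8.17% of genes), and setting the all-gene median to 0 gave a median of 2.69. Without 1 barcode set the median was 1.84 to 2.03 and the count 15 to 17 (3.1 to 3.65% of genes). Over 15 alternatives none of the 15 called members reversed, and 224 of 225 values stayed called. Part of this count was fixed in advance. A member called in every set can lose its call without 1 set only through the filter, and cannot lose it with no filter. Centring on an all-gene median that was negative in every set raises every ratio. In the Krt8/Sox9 cluster over hepatocyte-like cells the median turned to -0.051 with those UMIs left out, to -0.12 with the all-gene median at 0 and to -0.33 against the Alb/Serpina3k cells alone, and was 1.31, with 9 members higher and 1 lower, against the Fabp1/Gstm3 cells alone. Against all hepatocyte-like cells, 1 member was called higher with a pseudocount of 1 CPM (11.8% of genes) and with ER genes among the variable genes (7.78%). In cells with at least 500 genes 1 was also called higher (9.63%), and 1 lower (6.63%) with the all-gene median at 0. Without 1 set the median was 0.0987 to 0.55, with 0 to 2 higher (10.1 to 14.5%) and 0 to 1 lower (5.32 to 5.68%). In plasmacytoid over other dendritic cell-like cells the median was 0.66 with no filter and 0.49 with the all-gene median at 0. At the latter setting 2 members were called (5.04% of genes were called higher), and 3 at a filter of 100 CPM (11.6%). Without 1 set the median was 0.768 to 0.798 and the count 5 to 7 (7.91 to 8.33%). In plasma cell-like over hepatocyte-like cells the median was 0.48, with 2 members lower (24% of genes), against the Alb/Serpina3k cells alone. Against the Fabp1/Gstm3 cells alone it was 2.43, with 20 higher (6.64% of genes) and 0 lower (24.6%). The count lower was 0 at a filter of 100 CPM (38.9% of genes) and with the all-gene median at 0 (13.6%). It was 2 with cells weighted by UMIs (30.9%) and in cells with at least 500 genes (31.1%). Without 1 set the median was 0.778 to 1.94, with 12 to 13 higher (4.55 to 5.62%) and 0 to 1 lower (26.6 to 29.5%). Between the hepatocyte-like clusters the median was 1.93 with a pseudocount of 1 CPM and 1.90 with product UMIs left out. With UMI weighting 1 member, Sec61b, was called lower (2.35% of genes). Sec61b was also called lower in cells with at least 500 genes (3.2%) and without the finer Hpx/Serpina3k cluster (3.95%). Without 1 set the median was 1.27 to 1.58, with 13 to 15 higher (10.7 to 11.1% of genes) and 0 to 1 lower (4.97 to 12.2%). Apart from the changes that follow from fewer sets or genes, the cause was not tested.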

Other observations

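The 32 genes differed between barcode sets within a class. Of the 12 classes with values in all 4 sets, Atf4 was higher in both set 2 and set 3 than in both set 1 and set 4 in 12, Xbp1, Hsp90b1 and Herpud1 in 11 and Hspa5, Canx, P4hb and Syvn1 in 10. Dnajb11, Manf, Mzb1 and Sec11c showed this order in none, and Sdf2l1 showed the opposite order in 10 classes and Manf in 9. Hspa5, Hsp90b1, Canx and P4hb did not show the order in hepatocyte-like cells. Of the 29 members over 20 CPM, 8 (27.6%) had the order in at least 10 classes, against 496 of 5346 genes (9.28%) and 4 of 8 cytosolic heat shock genes (50%), so the order was not particular to the 32 genes. Sets 2 and 3 also had fewer UMIs per cell, with medians of 906 and 1037, than sets 1 and 4, with 2648 and 1859. The part of depth in the order was not tested, and the sets are not assigned to genotypes.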
